A study of Mus musculus with 4 samples.

Results

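The 34 genes described here encode actins of muscle, proteins that bind or cross-link actin filaments, and genes known to respond to the transcription factor SRF. They were selected as named rows of the deposited gene table, out of 25965 genes listed, and chosen because Acta1 and related genes were seen to be higher at day 6 and lower with both Smarca4 hairpins in these same libraries. All 34 were found, and 30 passed the filter on low values used below, a mean log2 CPM (reads of a gene scaled to a common library total, as the authors deposited them) of at least 0 over the 4 libraries. The 4 that did not were Actg2, Myh11, Mylk and Myocd.

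RNA-seq was performed on female mESCs, pluripotent cells of the mouse blastocyst, derived from FVB/NJ dams mated with CAST/EiJ sires and labelled FVB/CAST F1. The growth protocol in the labels speaks of Xmas lines, the study's reporter mESCs, instead. There were 4 groups of 1 library each. Day0 cells had not yet been differentiated and came from 2i and LIF medium, which holds inhibitors that keep mESCs naive. The 3 other groups were harvested at day 6 of weaning into DME HiHi, a serum medium that directs cells towards no particular lineage. These had been transduced with a retroviral short hairpin RNA on day 2 and selected with puromycin from day 3. Nons Day6 carried a non-silencing control hairpin, and Smarca4-4 Day6 and Smarca4-6 Day6 carried 1 of 2 hairpins against Smarca4, an ATPase of the BAF complex, which moves nucleosomes. The groups were taken from the sample titles. A further label field calls all 3 day 6 libraries, Nons Day6 included, a Smarcc knockdown, and calls Day0 a non-silencing control although its harvest precedes transduction.

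SRF binds a short DNA element, the CArG box, and recruits either myocardin (Myocd) or the myocardin-related factors Mkl1 and Mkl2. The related factors are held in the cytoplasm by unpolymerised actin and move to the nucleus when actin assembles into filaments, so SRF targets, which include many actin and actin-binding genes, follow the state of the cytoskeleton. The same genes make up the contractile programme of smooth muscle, but many of them are also used by spreading non-muscle cells. Several genes of the list, among them Ctgf, Cyr61 and Ankrd1, are better known as targets of YAP with TEAD factors, which also respond to cell shape.

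The guide strands of the 3 hairpins are shown because every comparison at day 6 turns on them, with the seed (bases 2 to 8) in capitals.
Smarca4-4: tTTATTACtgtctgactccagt
Smarca4-6: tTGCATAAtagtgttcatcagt
Nons: cTTACTCTcgcccaagcgagag
The 21-base target of Smarca4-4 was found at chr9:21703328-21703348 (GRCm38), in an exon of Smarca4 after its last coding base, and that of Smarca4-6 at chr9:21670505-21670525, in a coding exon. Neither matched a transcript of another gene in GENCODE M21, and the Nons target matched none. The seeds of the 2 Smarca4 hairpins differ.

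The promoters of 4 members are shown because their genes cover the range of responses below. Acta1 and Acta2 fell with both hairpins, Myl9 rose from no reads but hardly differed with the hairpins, and Srf is the factor itself. Each is RefSeq sequence of GRCm38.p6, from 250 bases before to 50 bases after the annotated start, with CArG boxes and the TEAD motif GGAATG, on either strand, in capitals. They lie at chr8:123894726-123895025 (minus strand, Acta1), chr19:34255324-34255623 (minus, Acta2), chr2:156775214-156775513 (plus, Myl9) and chr17:46556113-46556412 (minus, Srf).
Acta1: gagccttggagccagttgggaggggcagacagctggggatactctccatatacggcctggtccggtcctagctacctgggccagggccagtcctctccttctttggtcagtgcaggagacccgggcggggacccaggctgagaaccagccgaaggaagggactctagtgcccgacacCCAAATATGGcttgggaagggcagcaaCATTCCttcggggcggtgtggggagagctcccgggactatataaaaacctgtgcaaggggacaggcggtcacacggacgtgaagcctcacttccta
Acta2: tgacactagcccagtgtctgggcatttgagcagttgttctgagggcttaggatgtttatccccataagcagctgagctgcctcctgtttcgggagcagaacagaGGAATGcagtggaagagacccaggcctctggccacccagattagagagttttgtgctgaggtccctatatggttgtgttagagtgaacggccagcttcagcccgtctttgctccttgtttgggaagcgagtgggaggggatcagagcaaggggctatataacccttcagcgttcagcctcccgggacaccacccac
Myl9: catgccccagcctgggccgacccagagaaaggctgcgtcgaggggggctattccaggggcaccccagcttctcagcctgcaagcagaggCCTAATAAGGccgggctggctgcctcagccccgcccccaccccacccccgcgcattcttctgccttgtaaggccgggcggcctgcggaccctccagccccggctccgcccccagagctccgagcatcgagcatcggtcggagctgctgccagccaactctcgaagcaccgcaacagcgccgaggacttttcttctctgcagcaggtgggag
Srf: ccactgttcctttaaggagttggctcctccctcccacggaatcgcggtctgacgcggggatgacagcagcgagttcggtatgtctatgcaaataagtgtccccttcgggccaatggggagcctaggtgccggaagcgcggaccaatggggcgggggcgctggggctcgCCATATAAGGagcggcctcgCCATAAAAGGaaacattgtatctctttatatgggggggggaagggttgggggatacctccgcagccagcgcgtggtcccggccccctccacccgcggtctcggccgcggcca
The Acta1 promoter held a CArG box starting 73 bases and a TEAD motif starting 46 bases before the annotated start. Acta2 held a TEAD motif 146 bases before, and no full CArG box in this window. It did hold the near matches ccctatatgg and ccttgtttgg. These have a C and a G, respectively, where the full box has only A or T between CC and GG. Such near matches were not counted in any promoter. Myl9 held a CArG box at 161 bases before, and Srf held 2, at 82 and 62 bases. These 2 motifs do not overlap in any of the 4 sequences.

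Promoters were found for 27 of the 34 members, the exceptions being Actg2, Tagln, Myh11, Lims2, Myocd, Ctgf and Thbs1. A full CArG box was held by 6 of the 27 (22.2%), namely Acta1, Cnn2, Myl6, Myl9, Srf and Vcl, against 488 of 27025 genes with a promoter (1.81%). The near matches of Acta2 are not among them. In Myl6 it was in 1 of the 2 promoters listed. The TEAD motif was held by 12 of the 27 (44.4%) against 4481 of 27025 (16.6%). A match is a description of letters, and the members were picked partly for a known link to SRF or YAP. Among the 6 genes with a full CArG box the difference from Nons Day6 ran, with Smarca4-6, from a log2 value of -2.33 (Acta1) to 0.06 (Srf). Genes that held the box in this window thus differed widely, and whether the box went with the response was not tested.

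The libraries held between 18599402 (Day0) and 47143727 (Smarca4-4 Day6) reads by the totals recovered from the deposited values, so 3 reads, used below as the floor, correspond to between 0.0636 and 0.161 CPM. Smarca4 itself stood at 244 CPM at Day0, 229 in Nons Day6, 131 in Smarca4-4 Day6 and 174 in Smarca4-6 Day6. It was thus at 57.3% of Nons Day6 with Smarca4-4 and at 75.8% with Smarca4-6, the smaller knockdown being that of Smarca4-6. With 1 library a group no difference below has a replicate check, and no p-value is given. Intervals in brackets are exact 95% intervals of the counts. They compare 2 libraries and not 2 conditions, they cover counting error only, and they are too narrow where reads are not independent molecules or both ends of a pair were counted.

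The members took 0.215% of all reads at Day0 and 1.11% in Nons Day6, then 0.962% in Smarca4-4 Day6 and 0.863% in Smarca4-6 Day6. At Day0 5 members had no read and 8 had 3 or fewer, while in Nons Day6 only Actg2 had none. The rise with differentiation was therefore wide. Summed over the genes, the levels with the hairpins lay below Nons Day6 but remained well above Day0. In bulk RNA, fewer cells that express a gene and less RNA per cell cannot be told apart. Day0 and Nons Day6 also differ in medium, transduction and puromycin as well as in time, and these cannot be told apart.

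**Figure D1:**
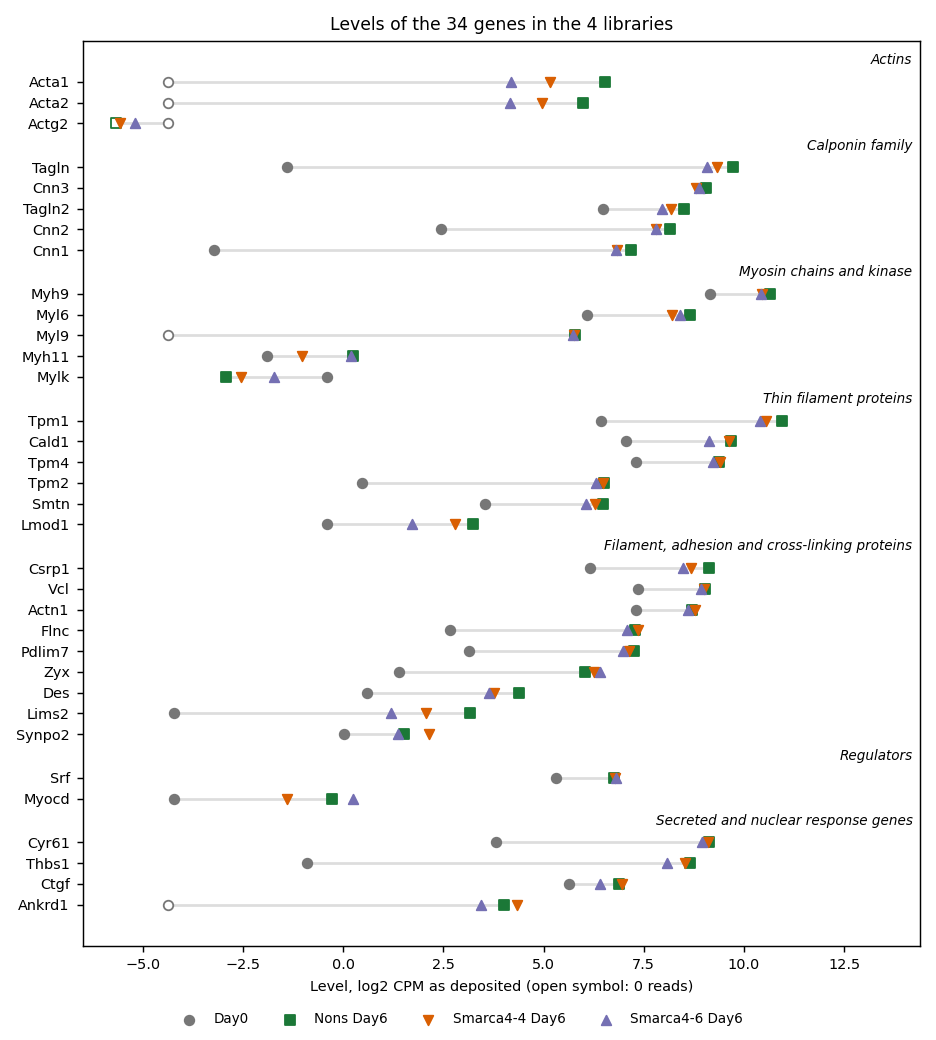
Level of each of the 34 genes in log2 CPM as deposited (horizontal axis), in Day0, Nons Day6, Smarca4-4 Day6 and Smarca4-6 Day6, grouped by role. Open symbols mark 0 reads, whose plotted value was set by the authors. Grey lines join Day0 and Nons Day6. Day 6 symbols lie close together for most genes. They lie furthest apart for Acta1, Acta2, Lmod1 and Lims2, and for Myh11, Mylk and Myocd, which had few reads.

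Of the 30 members that passed the filter, 29 were at least 2-fold higher in Nons Day6 than at Day0, against 19.6% of the 13264 genes that passed, and 0 were at least 2-fold lower, against 12.3%. The rule chose genes with this rise in view, so these counts describe the list. The median difference was 3.95 on the log2 scale (0.031 over all genes), with a range of 0.05 to 11.14. Cnn3 was the exception, with 510 CPM at Day0 and 528 in Nons Day6. A member low at Day0 passed the filter only by being high at day 6, which applies to the 9 members below 1 CPM at Day0 and to Acta1, Acta2 and Lims2 among them.

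Among the actins, Acta1, the alpha-actin of skeletal muscle, had 0 reads at Day0, then 92.2 CPM in Nons Day6, 35.8 in Smarca4-4 Day6 and 18.3 in Smarca4-6 Day6. It was at least 572-fold higher in Nons Day6 than the floor of 3 reads at Day0, and still at least 113-fold higher in Smarca4-6 Day6. All 3 day 6 libraries lay far above Day0, with Nons Day6 highest and Smarca4-6 Day6 lowest. Against Nons Day6, Acta1 was at 38.9% with Smarca4-4, a log2 difference of -1.36 (-1.45 to -1.28), and at 19.8% with Smarca4-6, a difference of -2.33 (-2.45 to -2.22).

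Acta2, the alpha-actin of smooth muscle, followed the same order. It had 0 reads at Day0, 63.1 CPM in Nons Day6, 30.9 in Smarca4-4 Day6 and 17.8 in Smarca4-6 Day6. That was at least 391-fold higher in Nons Day6 than at Day0, then 49.0% of Nons Day6 with Smarca4-4 (log2 -1.03, -1.12 to -0.94) and 28.2% with Smarca4-6 (-1.83, -1.95 to -1.70). Actg2, the gamma-actin of smooth muscle, had 0, 0, 1 and 1 reads in the 4 libraries and gave no fold. Per kilobase of exon, the level in Nons Day6 was 60.0 CPM for Acta1 and 28.7 CPM for Acta2. The transcripts of Acta1, Acta2, Actg2 and the cardiac actin Actc1 shared no stretch of 75 bases, the read length, with one another. Acta1 shared 0.394% of its 75-base windows with a pseudogene, Gm47692.

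All 5 members of the calponin family, small proteins that bind actin, were lower with both hairpins, by amounts far smaller than the actins. Tagln (transgelin) had 7 reads at Day0, or 0.376 CPM, against 852 CPM in Nons Day6, 637 in Smarca4-4 Day6 and 538 in Smarca4-6 Day6. Its rise, 11.14 on the log2 scale (10.10 to 12.46), was the largest among the members with reads at Day0, and its level per kilobase in Nons Day6, 429 CPM, was the highest. Its log2 difference from Nons Day6 was -0.42 with Smarca4-4 and -0.66 with Smarca4-6, a small change beside that rise. In the annotation, 62.4% of its exon bases overlap Gm48529 on the other strand, and without a stated strand setting the reads of such pairs cannot be told apart.

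Cnn1, calponin 1 of smooth muscle, had 2 reads at Day0 and 145, 115 and 112 CPM in Nons Day6, Smarca4-4 Day6 and Smarca4-6 Day6. The rise was 10.40 (8.55 to 13.45) and the differences from Nons Day6 were -0.34 and -0.38. Cnn1 thus had a large rise from very few reads and stayed at 78.8% and 76.7% of Nons Day6. Cnn2, a calponin of many cell types, went from 5.43 CPM at Day0 to 284 in Nons Day6 and 224 with each hairpin, a difference of -0.35 with each. Tagln2, which is broadly expressed, stood at 89.1, 361, 290 and 249 CPM in the order Day0, Nons Day6, Smarca4-4 Day6, Smarca4-6 Day6 (-0.32 and -0.54). Cnn3, the form that did not rise, had 449 CPM with Smarca4-4 and 470 with Smarca4-6 (-0.23 and -0.17), so a lower level was also found without a rise from Day0.

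Among the myosin genes, Myl9, the regulatory light chain used in smooth muscle and non-muscle myosin, did not follow the actins. It had 0 reads at Day0 and 55.5, 54.5 and 53.1 CPM in Nons Day6, Smarca4-4 Day6 and Smarca4-6 Day6. It was at least 344-fold higher in Nons Day6 than at Day0, a lower bound like those of the alpha-actins, and the 3 day 6 libraries lay together, with log2 differences of -0.03 (-0.11 to 0.05) and -0.06 (-0.15 to 0.02). Myl6, the essential light chain, had 67.6 CPM at Day0, 403 in Nons Day6, 294 in Smarca4-4 Day6 and 341 in Smarca4-6 Day6. Of the 30 that passed, it was 1 of 4 members that were lower with Smarca4-4 than with Smarca4-6. Myh9, a non-muscle myosin heavy chain, had 570, 1607, 1409 and 1376 CPM in the same order (-0.19 and -0.22).

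The smooth muscle forms were barely detected. Myh11, the myosin heavy chain of smooth muscle, had 5, 54, 23 and 42 reads, a level in Nons Day6 of 0.155 CPM per kilobase against 124 for Myh9. Its difference was -1.27 with Smarca4-4 (-2.05 to -0.55) and -0.04 with Smarca4-6 (-0.65 to 0.57). Mylk, the kinase that starts smooth muscle contraction, had 14, 6, 8 and 11 reads and was the only member with a lower level in Nons Day6 than at Day0 at more than 3 reads in each (log2 -2.52, -4.19 to -1.05). Both were thus far below 1 CPM per kilobase while other genes of the smooth muscle programme, among them Acta2, Tagln, Cnn1 and Smtn, were well above it.

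The thin filament genes were led by Tpm1, an alpha-tropomyosin that lies along the actin filament, with 86.6 CPM at Day0, 1961 in Nons Day6, 1500 in Smarca4-4 Day6 and 1339 in Smarca4-6 Day6 (-0.39 and -0.55). The other tropomyosins moved less. Tpm2 had 1.40, 91.0, 89.5 and 79.7 CPM (-0.02 and -0.19), and Tpm4 had 158, 660, 670 and 603 CPM (0.02 and -0.13). With Smarca4-4 they stayed at 98.3% and 102% of Nons Day6.

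Lmod1, leiomodin 1, which nucleates actin filaments in smooth muscle, had 0.753 CPM at Day0, 9.53 in Nons Day6, 6.94 in Smarca4-4 Day6 and 3.32 in Smarca4-6 Day6. It was at 72.8% of Nons Day6 with Smarca4-4 (-0.46, -0.67 to -0.25) and 34.8% with Smarca4-6 (-1.52, -1.83 to -1.23), the widest gap between the 2 hairpins among the members that passed. Smtn, smoothelin, had 11.6, 89.8, 78.2 and 67.1 CPM (-0.20 and -0.42). Cald1, caldesmon, which restrains actin-activated myosin, had 133, 812, 792 and 562 CPM, so that it stayed at 97.5% of Nons Day6 with Smarca4-4 and was at 69.2% with Smarca4-6.

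In the group of filament, adhesion and cross-linking proteins, Lims2, an adaptor of integrin adhesions, behaved like the alpha-actins. It had 1 read at Day0 (0.0538 CPM), then 9.05 CPM in Nons Day6, 4.20 in Smarca4-4 Day6 and 2.27 in Smarca4-6 Day6. The rise was 7.39 (4.91 to 12.70), and the differences from Nons Day6 were -1.11 (-1.36 to -0.86) and -1.99 (-2.35 to -1.65), or 46.4% and 25.1% of it. Des, desmin, the intermediate filament of muscle, had 1.51, 20.8, 13.6 and 12.5 CPM, with differences of -0.62 and -0.74. Csrp1, a LIM protein of smooth muscle and actin bundles, had 72.0, 560, 411 and 357 CPM (-0.45 and -0.65).

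The remaining adhesion genes did not share a direction. Vcl, vinculin, which links adhesions to actin, had 165, 520, 512 and 489 CPM (-0.02 and -0.09), Actn1, an alpha-actinin that cross-links actin, had 157, 414, 441 and 389 CPM (0.09 and -0.09), and Flnc, filamin C, had 6.34, 155, 165 and 137 CPM (0.08 and -0.19). Pdlim7, a scaffold of actin filaments, had 8.87, 153, 140 and 127 CPM (-0.13 and -0.27). Zyx, zyxin, a protein of adhesions and stress fibres, went the other way, with 2.63, 65.5, 76.5 and 85.7 CPM, and was the member with the largest excess over Nons Day6 with Smarca4-6 among those that passed (0.39, 0.32 to 0.46). Synpo2, which bundles actin in muscle, had 1.02, 2.88, 4.43 and 2.58 CPM and was higher with Smarca4-4 alone (0.62, 0.30 to 0.95, against -0.16, -0.56 to 0.23).

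Of the regulators, Srf had 39.8 CPM at Day0 and 108, 110 and 113 CPM in Nons Day6, Smarca4-4 Day6 and Smarca4-6 Day6. Its differences from Nons Day6 were 0.02 (-0.03 to 0.08) and 0.06 (-0.002 to 0.12). Myocd, the muscle cofactor of SRF, had 1, 38, 18 and 43 reads, with differences of -1.12 (-2.02 to -0.28) and 0.50 (-0.16 to 1.17). The transcript of the factor itself thus stood at the control level with both hairpins, and that of its muscle cofactor was too low for a common direction to be read.

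The secreted and nuclear response genes split by hairpin. Ctgf and Cyr61 encode matrix-associated signalling proteins, Thbs1 encodes thrombospondin 1, and Ankrd1 encodes a nuclear protein induced by stretch. Thbs1 had 10 reads at Day0 (0.538 CPM) and 404, 368 and 269 CPM in Nons Day6, Smarca4-4 Day6 and Smarca4-6 Day6 (-0.14 and -0.59). Ctgf had 49.7, 118, 125 and 85.3 CPM in the order Day0 to Smarca4-6 Day6 (0.08 and -0.47), and Cyr61 had 14.0, 559, 554 and 493 CPM (-0.01 and -0.18). Ankrd1 had 0 reads at Day0 and 16.2, 20.4 and 10.9 CPM at day 6, so that it was higher than Nons Day6 with Smarca4-4 (0.33, 0.19 to 0.47) and lower with Smarca4-6 (-0.58, -0.76 to -0.40). Each of the 4 was lower with Smarca4-6 than with Smarca4-4.

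**Figure D2:**
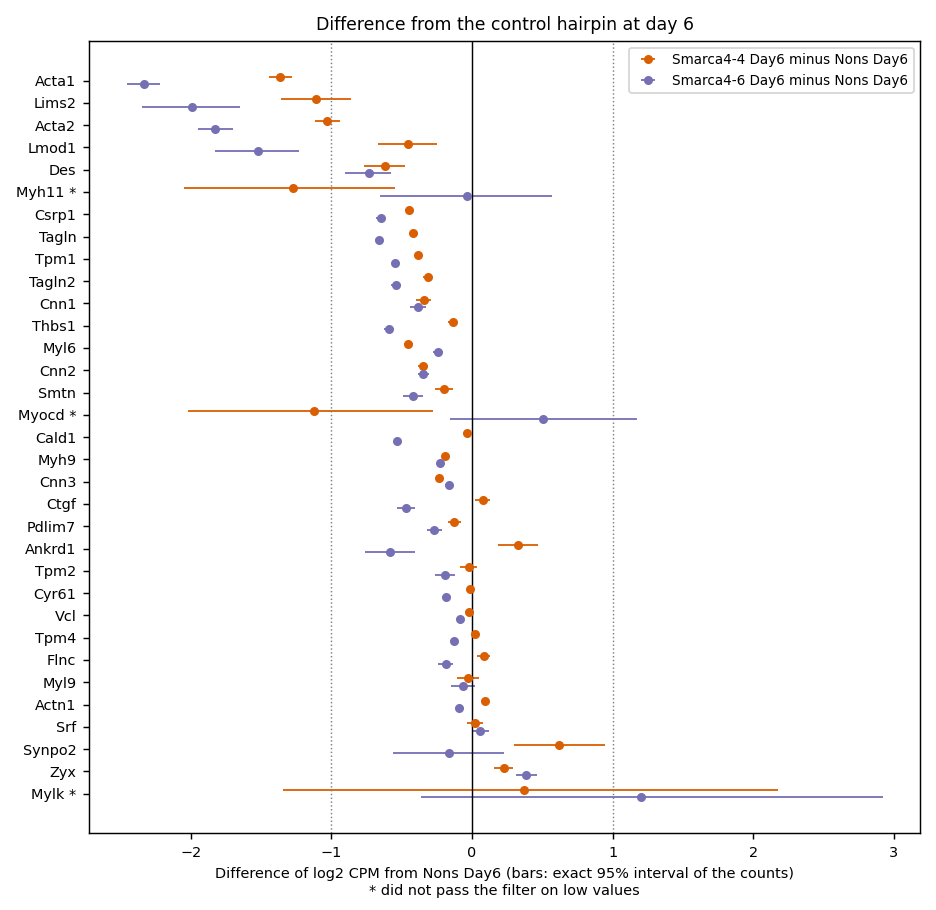
Difference of log2 CPM from Nons Day6 (horizontal axis) with Smarca4-4 and with Smarca4-6, with exact 95% intervals of the counts, for every member with more than 3 reads in a day 6 library, ordered by the mean of both differences. Dotted lines mark 2-fold and a star marks a gene that did not pass the filter. Acta1, Lims2 and Acta2 lie beyond 2-fold lower with both hairpins, Lmod1 with Smarca4-6, and most others lie between 0 and the dotted line.

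Counted over the 30 members that passed, 3 were at least 2-fold lower with Smarca4-4, against 0.309% of all genes, and 4 with Smarca4-6, against 0.799%. The 3 with Smarca4-4 (Acta1, Acta2 and Lims2) were also at least 2-fold lower with Smarca4-6, so 3 were lower with both, against 0.121% of all genes, and Lmod1 was the further one. At 1.5-fold, 4 were lower with Smarca4-4 (2.37% of all genes), 8 with Smarca4-6 (3.83%) and 4 with both (1.22%), Des being the one added to both. The other 3 with Smarca4-6 were Tagln, Csrp1 and Thbs1. Under scaling by the autosomal median or by size factors, 12 members in place of 8 were at least 1.5-fold lower with Smarca4-6. The counts with Smarca4-4 and with both stayed at 4. At least 1.5-fold higher were 1 member with Smarca4-4, Synpo2 (4.03% of all genes), and 0 with Smarca4-6 (5.68%). Lower by any amount were 22 members with Smarca4-4 (43.5%), 28 with Smarca4-6 (41.1%) and 22 with both (30.1%). Both differences use the same Nons Day6 library, and the rule chose genes with these falls in view, so nothing is read from these counts beyond how far the fall extends in the list. Without the filter on low values 5 were at least 2-fold lower with Smarca4-4, Myh11 and Myocd being added, and with the filter at a mean log2 CPM of 3 there were 0 with either hairpin, since Acta1 and Acta2 then fail it through their Day0 values and Lims2 and Lmod1, whose day 6 values also average under 3, through low levels.

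The median difference was -0.16 with Smarca4-4, against 0.038 over all genes, and -0.36 with Smarca4-6, against 0.064. By role, the medians with Smarca4-4 and Smarca4-6 were -1.20 and -2.08 for the 2 actins that passed, -0.34 and -0.38 for the calponin family, -0.19 and -0.22 for the 3 myosin genes that passed, -0.12 and -0.48 for the thin filament genes, -0.02 and -0.19 for the adhesion group, and 0.03 and -0.53 for the response genes. A fall of 2-fold or more was thus held by few genes of differing roles, and a smaller one by the calponins, Tpm1, Csrp1 and the myosin chains other than Myl9. Without Acta1, Acta2 and Lims2 the medians were -0.13 and -0.27.

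The 2 hairpins were also compared with each other, without Nons Day6, a contrast that the rule did not use, although both libraries entered those it did use. The level was higher with Smarca4-4 than with Smarca4-6 in 26 of the 30 members, against 44.2% of all genes. By at least 1.5-fold, 6 members were higher with Smarca4-4 (2.59% of all genes), namely Lmod1, Acta1, Ankrd1, Lims2, Acta2 and Synpo2, and 0 were lower (1.88%). The median was 0.17, against -0.031 over all genes. The 4 members with the other sign were Myl6 (-0.21), Zyx (-0.16), Cnn3 (-0.07) and Srf (-0.04). The levels of these genes were therefore lower with the hairpin that left more Smarca4 transcript. With 1 library for each hairpin, hairpin and library cannot be told apart.

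**Figure D3:**
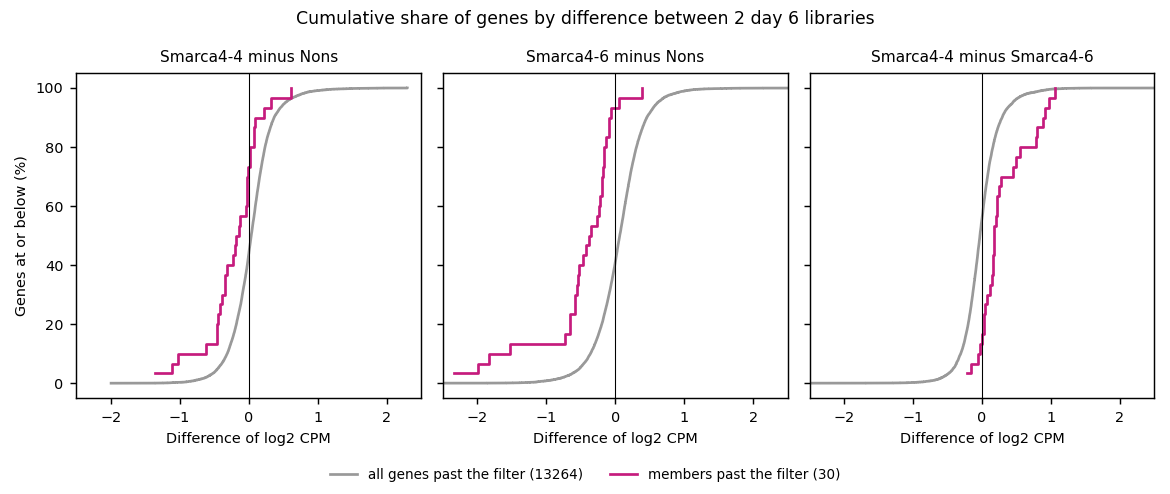
Cumulative share of genes (vertical axis, percent) at or below each difference of log2 CPM (horizontal axis) for Smarca4-4 minus Nons, Smarca4-6 minus Nons and Smarca4-4 minus Smarca4-6, for the 30 members and for all 13264 genes that passed the filter. The members' curve lies to the left of that of all genes over most of its length in the first and second panels, and to the right in the third.

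Whether the fall scaled with the rise at day 6 was examined over libraries that are not shared, by setting the rise in 1 hairpin library over Day0 beside the difference of the other hairpin from Nons Day6. Over the 30 members, the rise in Smarca4-4 Day6 and the difference with Smarca4-6 had Pearson's r = -0.39 and a Spearman coefficient of -0.40. With the libraries exchanged these were -0.30 and -0.30. Acta1, Acta2, Myl9 and Ankrd1 had 0 reads at Day0, so their rise entered with the log2 value the authors wrote for 0 reads (-4.37). Lims2 and Cnn1 entered with 1 and 2 reads at Day0. These coefficients are descriptions across genes, which are not independent and share the libraries' depth, and no p-value is given. The rule chose the members with both the rise and the fall in view, so a relation between them can partly follow from that choice. The 9 members below 1 CPM at Day0 also passed the filter only by being high at day 6. Keeping the libraries apart does not remove this selection. Without Acta1, Tagln and Cnn1, the omission planned beforehand, Pearson's r was -0.32 and -0.15. Without Acta1, Acta2 and Lims2 it was -0.12 and -0.06. These are the 3 members that passed with the largest falls, and they were picked after their values were seen. Leaving them out tends to weaken such a relation by construction, so it does not show what the relation rested on. The Spearman coefficient was not computed without them. Pearson's r was also weaker with a pseudocount of 1 CPM (-0.17 and -0.13). With a filter at a mean log2 CPM of 3, which leaves out Acta1, Acta2 and Lims2, it was -0.15 and -0.11.

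Members that rose to a like extent differed widely. Of the genes with 3 or fewer reads at Day0, Acta1, Acta2 and Lims2 fell most, Cnn1 was at -0.34 and -0.38, Myl9 was level, and Ankrd1 had opposite signs with the 2 hairpins. When the 30 were divided at the middle of the rise, the upper 15 had a median difference of -0.38 with Smarca4-6 and the lower 15 of -0.24. The exchanged libraries gave the opposite order, -0.14 for the upper and -0.19 for the lower 15 with Smarca4-4. The 457 other genes with a rise as large as that of the upper members had a median of 0.04 with Smarca4-6, with 47.9% below 0, and the 490 in the exchanged comparison had -0.007, with 50.8% below 0. These other genes, like the upper 15 members, were chosen by their rise in a hairpin library and not in Nons Day6. Genes whose rise was lowered with both hairpins were thus less likely to be included, which can move these medians upwards. Whether a large rise in Nons Day6 went with a lower level in the hairpin libraries among the other genes was therefore not tested.

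**Figure D4:**
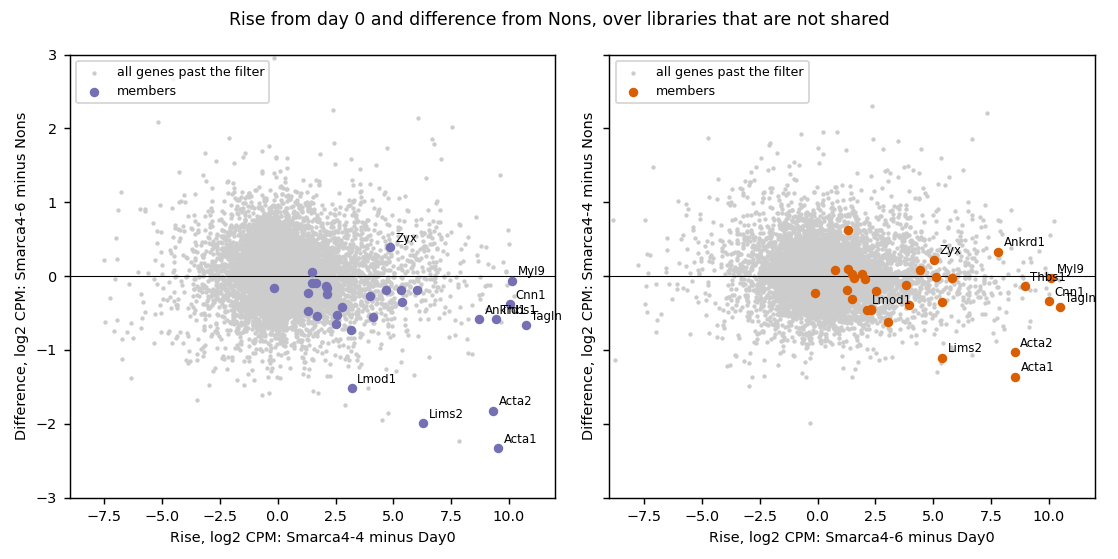
Rise over Day0 in 1 hairpin library (horizontal axis, log2 CPM) and difference of the other hairpin library from Nons Day6 (vertical axis, log2 CPM), so that no library enters both axes. Coloured points are the 30 members and grey points all genes that passed the filter. Acta1, Acta2 and Lims2 lie lowest, and Myl9, Cnn1 and Tagln lie at the far right and higher, between -0.66 and -0.03. The horizontal positions of Acta1, Acta2, Myl9 and Ankrd1 rest on the value set by the authors for 0 reads at Day0.

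Other genes of the pathway were taken from lists put together with earlier results of these data known. The SRF cofactors, of which 7 of 7 passed, had medians of -0.04 with Smarca4-4 and 0.02 with Smarca4-6, and 0 were past 1.5-fold in either direction. Over all genes, 2.37% were at least 1.5-fold lower with Smarca4-4 and 3.83% with Smarca4-6. Those at least 1.5-fold higher were 4.03% and 5.68%. A count of 0 among 7 genes lies near these shares and is not read as a result. Mkl1, which carries the actin signal to SRF, had 17.7, 19.0 and 20.5 CPM in Nons Day6, Smarca4-4 Day6 and Smarca4-6 Day6. Its partner Mkl2 was at 19.3, 23.8 and 23.5 CPM at day 6. Elk3, a cofactor of the growth factor branch, was lower with both (-0.29, -0.57 to -0.02, and -0.37, -0.67 to -0.06), and Fhl2, a LIM protein that binds SRF, was at -0.09 and -0.26. The cofactors thus had both signs.

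Immediate early genes, which SRF controls with other cofactors after growth factor signals, were few at this depth. Of the 5 of 8 that passed, the median was 0.31 and 0.37, and 4 were higher with both hairpins, against 45.4% of all genes and 2 of the 30 members (Srf and Zyx, of which Srf changed sign under other scalings). Egr1, a zinc finger factor, had 6.14, 7.64 and 16.9 CPM in Nons Day6, Smarca4-4 Day6 and Smarca4-6 Day6 (0.31 and 1.46). Junb, a subunit of AP-1, had 62.8, 78.2 and 81.7 CPM. Egr1 and Junb thus had the opposite sign to the alpha-actins, while 5 genes are too few to describe the class.

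A further 19 known targets of the myocardin-related factors and SRF that are not members gave 16 that passed, with medians of -0.03 and -0.12. With both hairpins 9 were lower, against 30.1% of all genes, and 4 higher, against 45.4%. At least 1.5-fold lower were 1 with Smarca4-4 (2.37% of all genes) and 3 with Smarca4-6 (3.83%). Jph2, junctophilin 2, which joins membranes at muscle calcium stores, resembled the alpha-actins, with 1 read at Day0 and 25.7, 12.3 and 5.45 CPM in Nons Day6, Smarca4-4 Day6 and Smarca4-6 Day6 (-1.06 and -2.24). Tuft1 had differences of -0.58 and -0.78. Most of these targets, like most members, were within 1.5-fold of Nons Day6.

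The YAP and TEAD list, 14 of 14 passing, had medians of 0.03 and -0.19. At least 1.5-fold higher was 1 gene with each hairpin (4.03% and 5.68% of all genes), and 1 was lower with Smarca4-6 (3.83%). Fjx1 was higher with both (0.80 and 1.25), and Tgfb2 was lower (-0.23 and -0.77). General cytoskeletal genes, 12 of 12 passing, had medians of -0.11 and -0.09, with Vim, vimentin, higher (0.49 and 0.74) and Actn4, another alpha-actinin, lower (-0.26 and -0.36). The TGF-beta pathway, 10 of 10 passing, had medians of 0.15 and 0.17. At least 1.5-fold higher were 2 genes with each hairpin (4.03% and 5.68% of all genes), and 0 were lower. Higher with both were 7, against 45.4% of all genes. Among them were Tgfb3, a ligand of the pathway (0.81, 0.34 to 1.28, and 0.75, 0.26 to 1.26), and Tgfbi, a matrix protein that the pathway induces (0.70, 0.03 to 1.39, and 1.28, 0.63 to 1.95). These 2 genes had only 61 and 31 reads in Nons Day6.

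**Figure D5:**
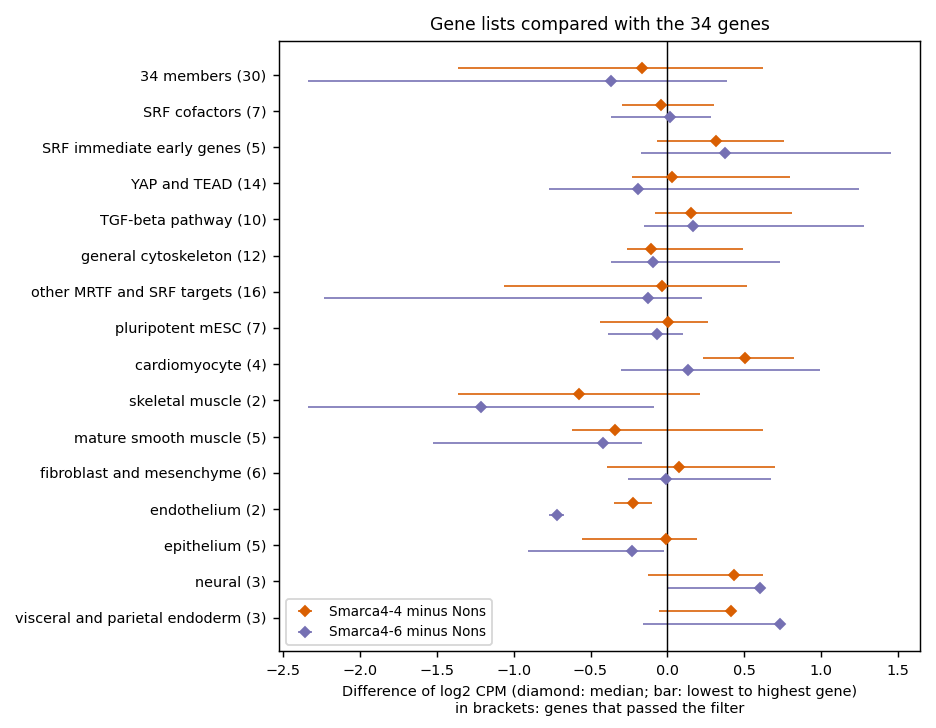
Median (diamond) and range from lowest to highest gene (bar) of the difference of log2 CPM from Nons Day6 (horizontal axis) with Smarca4-4 and Smarca4-6, for the members and for each other list, with the number of genes that passed in brackets. Only the members, the mature smooth muscle markers and other MRTF and SRF targets, and the skeletal muscle markers through Acta1, reach beyond -1.

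Markers of cell types were read beside these results. Skeletal muscle markers summed to 4.73 CPM at Day0 and 94.8, 39.1 and 20.6 CPM in Nons Day6, Smarca4-4 Day6 and Smarca4-6 Day6, nearly all of it Acta1 at day 6 and Myh3 at Day0, while Myod1, Myog and Myf5 had 3 reads or fewer in Nons Day6. Cardiomyocyte markers summed to 54.9, 23.9, 28.3 and 28.5 CPM. Among them the cardiac actin Actc1, which did not pass the filter, had 0 reads at Day0 and 5.40, 1.23 and 1.97 CPM at day 6. Mature smooth muscle markers summed to 15.3, 271, 219 and 199 CPM. Myh11 and Myocd did not pass the filter, and all 7 of that list are members. The troponins of the cardiomyocyte list, Tnnc1, Tnnt2 and Tnni1, did not pass either. Tnnc1 had 42, 20 and 10 reads in Nons Day6, Smarca4-4 Day6 and Smarca4-6 Day6. In the same order Tnnt2 had 11, 2 and 3 reads, and Tnni1 had 7, 20 and 2. Among the day 6 libraries, Tnnc1 and Tnnt2 were thus highest in Nons Day6 and Tnni1 in Smarca4-4 Day6. Tnnt2 and Tnni1 were higher still at Day0, with 29 and 170 reads. The 4 cardiomyocyte markers that passed had medians of 0.51 and 0.13, so the cardiac markers did not share a direction.

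Epithelial markers summed to 401 CPM at Day0 and 3086, 3109 and 2673 CPM in Nons Day6, Smarca4-4 Day6 and Smarca4-6 Day6, with medians of -0.01 and -0.23 over 5 genes. Krt8, a keratin of simple epithelium, went from 1.88 CPM to 964, 1101 and 884 CPM, and Krt19 had differences of -0.55 and -0.91. Fibroblast markers summed to 13.7, 36.6, 38.6 and 36.1 CPM, endothelial ones to 236, 16.6, 14.1 and 11.2, neural ones to 169, 445, 441 and 481 and endodermal ones to 40.3, 176, 172 and 160. The last 3 sums were mostly 1 gene each, Pecam1 (227 CPM at Day0), Nes (380 CPM in Nons Day6) and Lamb1 (171 CPM in Nons Day6). The other neural markers were lower in Nons Day6 than at Day0, among them Tubb3 (112 to 58.2 CPM). They were higher than Nons Day6 with both hairpins. Pax6 was at 0.62 and 0.60 and Tubb3 at 0.43 and 0.61. Sox1, which did not pass the filter, had 9, 140 and 30 reads in Nons Day6, Smarca4-4 Day6 and Smarca4-6 Day6. Nes was at -0.12 and 0.003, and the 3 neural markers that passed had medians of 0.43 and 0.60. The other endodermal markers were low and changed in both directions from Day0. With the hairpins, the 3 endodermal markers that passed had medians of 0.41 and 0.73. Gata4 (0.41 and 0.74) and Sox17 (0.43 and 0.73) were higher with both, and Lamb1 was lower (-0.05 and -0.16). The medians were 0.07 and -0.01 for the 6 fibroblast markers that passed and -0.22 and -0.72 for the 2 endothelial ones. Of the 7 pluripotency markers 6 were at least 2-fold lower in Nons Day6 than at Day0, against 12.3% of all genes. Among them was Nanog (999 to 60.7 CPM), while Pou5f1 stayed at 724 and 915 CPM. None of the 7 was past 1.5-fold with a hairpin, which for so few genes lies near the shares of all genes. Those shares were 2.37% and 3.83% lower, and 4.03% and 5.68% higher, with Smarca4-4 and Smarca4-6. Epithelial markers thus had the highest sum of these lists at day 6, and fibroblast markers were low. The part of cell mixture in the results for the members was not tested.

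Reads of overlapping genes on the other strand could enter the counts of Vcl (25.5% of exon bases), Ctgf (23.2%), Cnn3 (17.7%) and Smtn (16.3%), beside Tagln above. Members with transcript windows of 75 bases shared with other genes were Tpm4 (9.11%), Myl6 (5.42%), Cnn3 (4.09%), Acta1 and Myh9 (0.365%). Of the 3 genes lower by 2-fold with both hairpins, Acta2 had neither, and Lims2 overlapped Gpr17 over 6.14% of its exon bases.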

How the data were processed

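RNA-seq libraries were sequenced by the authors as paired-end 75-base reads on a NextSeq500, trimmed with trim_galore and aligned to mm10, in which positions that differ between FVB/NJ and CAST/EiJ had been masked, with hisat2 or tophat (HISAT2 per the labels). The authors quantified genes in SeqMonk and deposited log2 CPM, with both alleles combined. The strand setting was not given in the sources used here.

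Every deposited log2 value up to 1000 reads, and at least 99.98% of all values, was within 0.1 of a whole number of reads, which gave the reads per gene and the totals. Libraries held 18599402 (Day0), 45759793 (Nons Day6), 47143727 (Smarca4-4 Day6) and 36495582 (Smarca4-6 Day6) reads.

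Differences were taken between deposited log2 values. Genes with a mean log2 CPM of at least 0 were kept (13264 of 25965). Each group had 1 library, so no test was run, and exact Clopper-Pearson 95% intervals of the counts were computed with scipy 1.17.1 (numpy 2.4.6, pandas 2.3.3). Values of 0 reads were bounded at 3 reads. The members, the pathway lists and the marker lists were chosen with earlier results of these data known. All 34 members are named, and from each other list at most the 4 genes with the largest mean hairpin difference. Myod1, Myog, Myf5, Actc1, Tnnc1, Tnnt2, Tnni1 and Sox1 were named after their values were seen. Positions, exon lengths and shared 75-base windows came from GENCODE M21 (GRCm38, the assembly of mm10), and promoters from RefSeq GRCm38.p6. The CArG box was searched as its full consensus. The computations were tested on simulated data. Alternatives tried were no filter, or a stricter one with a minimum of 3; adding 1 CPM before the log; scaling by the autosomal median or by size factors; a 1.5-fold threshold; and leaving out members. Leaving out Acta1, Acta2 and Lims2 was chosen after seeing the data. A further pathway list and 1 gene of another list are not reported here.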

Additional observations from a re-analysis of the deposited data

Results flagged for a closer look

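For 5 members the difference from Nons Day6 had opposite signs with the 2 hairpins and both counting intervals left out 0. Ankrd1 was at 0.33 with Smarca4-4 and -0.58 with Smarca4-6. Ctgf was at 0.076 and -0.47, Flnc at 0.083 and -0.19, Actn1 at 0.089 and -0.090, and Tpm4 at 0.023 and -0.13. Each was higher with Smarca4-4. The difference between the hairpins was not tested, since each had 1 library. The value for Tpm4 with Smarca4-4 changed sign under another scaling, as given below.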

How the results depend on the processing

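No paired analysis was possible because the 4 libraries carry the same replicate number and none has a partner in its group. With 1 library a group no library could be left out. Of the values of summary results under an alternative, 117 kept their direction and stayed within 1.5 times a count or within the spread over genes of a median or correlation, a wide limit, and 17 did not, all counts of members. The stricter filter kept 24 of the 34 members and left out Acta1 and Acta2 through their Day0 values and Lims2 and Lmod1, whose day 6 values also average under 3, through low levels, so that 0 members were at least 2-fold lower with Smarca4-4, 0 with Smarca4-6 and 0 with both, 1 was at least 1.5-fold lower with Smarca4-4, 4 with Smarca4-6 and 1 with both, 0 were 1.5-fold higher with Smarca4-4, and 0 were 1.5-fold higher in Smarca4-4 than in Smarca4-6. Without a filter the count at least 2-fold lower in Nons Day6 than at Day0 was 2, Mylk and Actg2, the latter with 0 reads in both, so that its value reflects only how 0 was written at each depth, 5 were 2-fold lower with Smarca4-4, 1 was 1.5-fold higher with Smarca4-6 and 3 were 1.5-fold lower in Smarca4-4 than in Smarca4-6. A threshold of 1.5-fold gave 8 members lower with Smarca4-6, and the pseudocount of 1 CPM left 0 members 1.5-fold higher with Smarca4-4. That count of 8 became 12 under centring and under size factors, which lies at the edge of the limit of 1.5 times and is among the 117. Higher with both hairpins were 4 members without a filter (Actg2 at 1 read with each and Mylk added) and 1 under centring and under size factors, in place of 2. Pearson's r between rise and fall was -0.15 and -0.11 when the stricter filter was used, and -0.17 and -0.13 when 1 CPM was added. Of the values of single genes under an alternative scaling or pseudocount, 288 stayed within the counting interval, 105 moved past it without such a change of sign and 3 changed sign after an interval that left out 0. The Cnn3 difference of Nons Day6 from Day0 was -0.0013 under centring, and the Tpm4 difference with Smarca4-4 was -0.0096 under centring and -0.012 with size factors. Srf, whose intervals held 0, brought the changes of sign to 8: with Smarca4-4 it was -0.0099 and -0.012 under centring and size factors, with Smarca4-6 -0.0034 and -0.016, and Smarca4-4 minus Smarca4-6 was 0.0034 with size factors. Depth limits Actg2, Mylk, Myocd and Myh11, and Day0, the shallowest library, limits the size of every rise from few reads.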
